A study of Mus musculus with 4 samples.

Results

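The ADAM proteases measured here were Adam9 and 9 other membrane ADAM genes (Adam8, Adam10, Adam12, Adam15, Adam17, Adam19, Adam22, Adam23 and Adam33), in skin fibroblasts that lacked ADAM9 and in wild-type skin fibroblasts. The members were the probe sets of the expression array annotated to exactly 1 of these 10 genes, which gave 24 of 45037 probe sets. A probe set is the group of short probes on the array that together give 1 value for a transcript. The cells were primary dermal fibroblasts from newborn mice at postnatal day 1, of genotype adam9 -/- (knockout, n = 2 isolations) or adam9 +/+ (wild type, n = 2 isolations), with 1 array per isolation. Both genotypes were plated at equal cell number and grown untreated for 48 h. The labels name no strain, no deleted part of the gene and no number of animals behind an isolation, so p-values measure the spread between isolations.

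ADAM proteins sit in the cell membrane and carry a metalloprotease domain and a disintegrin domain. They are made with an inhibitory prodomain that furin-type convertases remove, and the active members, called sheddases, cut the outer part off other membrane proteins and so release growth factors, cytokines and receptors. ADAM10 and ADAM17 are the sheddases with the widest known set of substrates. Several substrates can be cut by more than 1 ADAM, and the comparison asks whether messenger RNA of any other ADAM stood higher where Adam9 was lost.

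Of the 10 genes only Adam9 itself passed the test, and it fell. None of the other 9 passed in either direction. Adam12, Adam23 and Adam33 had higher values in both knockout arrays than in both wild-type arrays, by 0.85 to 1.05 log2 units in the brightest probe set of each, and did not pass. Adam8, Adam10, Adam15 and Adam22 had lower values in both knockout arrays, and Adam17 and Adam19 overlapped between the genotypes. The test was limma's moderated test over 13271 genes with p-values adjusted by the Benjamini-Hochberg method, and a gene passed at an adjusted p under 0.05.

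**Figure D1:**
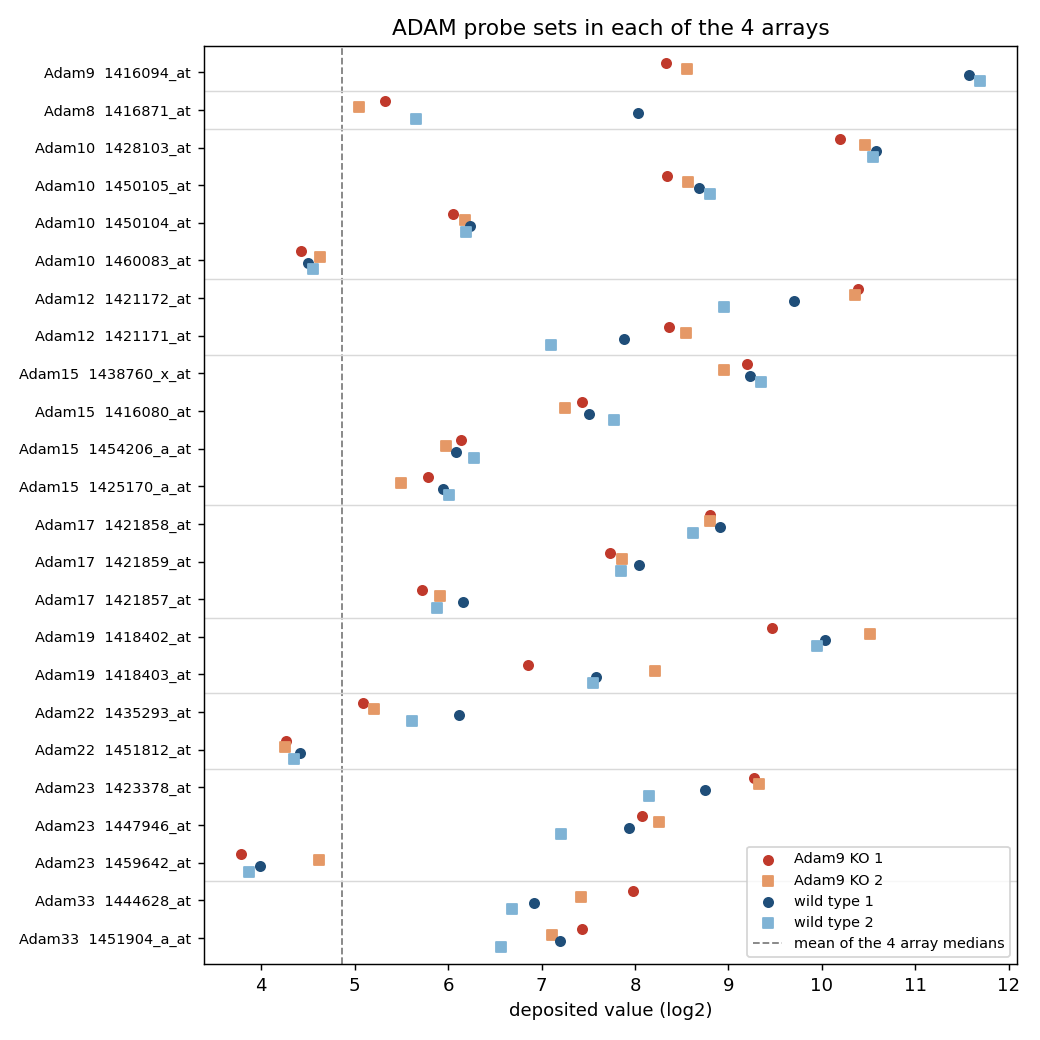
Deposited log2 values of all 24 ADAM probe sets, 1 row each, in knockout isolations 1 and 2 and wild-type isolations 1 and 2 (1 point per array), with the mean of the 4 array medians as a dashed line. Adam9 separates by about 3 log2 units, Adam8 stands out in wild-type isolation 1, and the genotype means of the other genes differ by 1.05 or less.

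The arrays differed in more than Adam9. Xist, the RNA that silences an X chromosome in female cells, was 10.38 and 10.40 in the knockout arrays and 4.29 and 4.32 in the wild-type arrays. The Y-linked Eif2s3y was 2.75 and 2.67 in the knockout arrays and 9.19 and 9.31 in the wild-type arrays, so sex-linked expression and genotype cannot be told apart in any comparison below. All 16 dermal fibroblast markers stood above the array median in all 4 arrays. Their median was 12.28 and 12.38 in the knockout arrays and 12.34 and 11.54 in the wild-type arrays, and 12 of the 16 were lowest in wild-type isolation 2. Of 20 macrophage and other leukocyte markers, 19 were highest in wild-type isolation 1. The medians of 11 keratinocyte and 10 endothelial markers were 3.54 to 4.21 in all arrays, below the array medians. Of the keratinocyte markers, 3 lay lower in both knockout arrays (beside 22.0% of all genes tested), 2 higher (beside 23.0%), and 6 overlapped. Their summed level on the linear scale was 383 and 363 in the knockout arrays and 643 and 627 in the wild-type arrays. Perp, 1 of the 3 lower ones, was 5.28 and 3.04 in knockout cells, against 8.10 and 7.90 in wild-type cells. The median of 19 markers of cycling cells was 8.43 and 9.39 in the knockout arrays and 6.81 and 6.59 in the wild-type arrays. The part of these differences in the ADAM values was not tested. Values without 1 array show only how far a difference rests on that array.

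Adam9 encodes a broadly expressed sheddase whose reported substrates include HB-EGF. It had 1 probe set, 1416094_at (Entrez 11502), with log2 values of 8.33 and 8.55 in knockout isolations 1 and 2 and of 11.58 and 11.70 in wild-type isolations 1 and 2. Both knockout arrays were thus far below both wild-type arrays, with a gap between isolations of 0.22 in knockout cells, against 0.12 in wild-type cells. The mean was 8.44 ± 0.157 in knockout cells, against 11.64 ± 0.084 in wild-type cells (SD, n = 2 each), which is 9.16-fold lower where Adam9 was deleted (a log2 difference of -3.20 with an SE of 0.147, limma adjusted p = 0.0242). Its 95% interval ran from -3.59 to -2.80. The knockout values still lay above the array medians of 4.84 to 4.88. The labels do not say whether this probe set lies in the deleted part, and a probe set elsewhere in the gene would not check the genotype. With any 1 array left out the difference stayed between -3.31 and -3.08, but the call was lost (limma adjusted p = 0.126 to 0.244), and a block for the isolation number also ended it (adjusted p = 0.104).

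Of the 10 genes, 1 passed, and that was Adam9, the gene knocked out by design. None of the other 9 passed, where 0.0678% of all genes tested did. Adam9 fell in the knockout, as 0.0527% of all genes tested did, while 0.0151% of all genes tested and none of the members rose. Among the other 9, 3 genes lay higher in the knockout with no overlap between genotypes and 4 lay lower, where 23.0% of all genes tested lay higher without overlap and 22.0% lower. An unadjusted p under 0.05 was reached by 4 of the 9 (Adam12, Adam22, Adam23 and Adam33), where 11.4% of all genes tested reached it, and their limma adjusted p ran from 0.347 to 0.384. Over all 9 the median difference was 0.0018 log2 units, beside 0.0027 over all genes tested. At the level of probe sets, tested over all 45037 with no filter on dim ones, only the Adam9 probe set passed (limma adjusted p = 0.0239). None of the other members' probe sets passed, where 0.0311% of all probe sets did. Of the 23 others, 5 lay higher in the knockout without overlap (background 19.5%), 9 lay lower without overlap (background 20.0%) and 5 reached an unadjusted p under 0.05 (background 9.00%). Probe sets of 1 gene measure the same RNA and are not independent of each other.

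**Figure D2:**
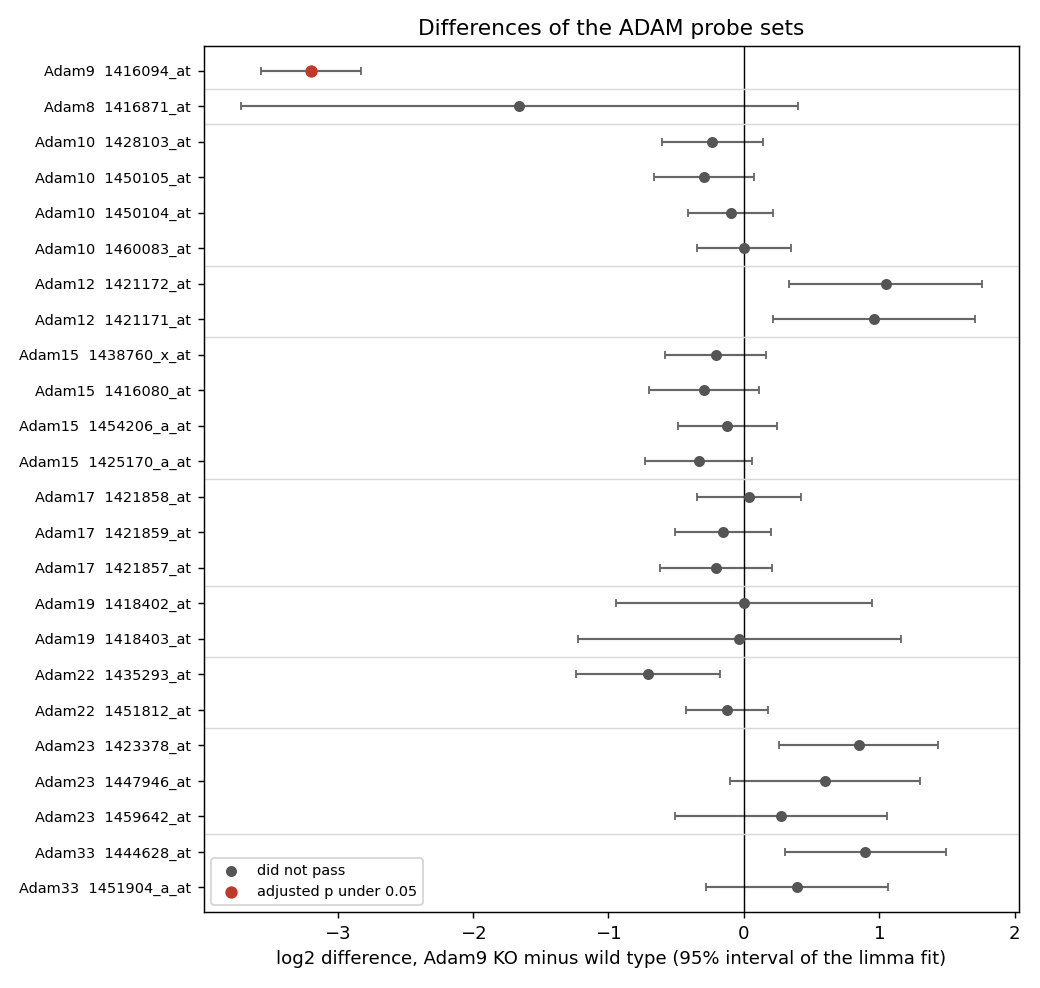
Log2 difference (knockout minus wild type) of each of the 24 ADAM probe sets with its 95% interval from the limma fit over all probe sets; the point in red passed at an adjusted p under 0.05. Only the Adam9 probe set passed, and the intervals of 5 others, for Adam12, Adam22, Adam23 and Adam33, do not reach 0.

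Levels are described below only as log2 values of a probe set across arrays. Probe sets bind their targets with different strength, so the order of values among the genes is not an order of RNA amounts. In all, 21 of the 24 probe sets stood above the array median in all 4 arrays, and the other 3 (Adam10 1460083_at, Adam22 1451812_at and Adam23 1459642_at) stood below it in all 4. Each of the 10 genes had at least 1 probe set above the median in every array.

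Adam10 encodes the sheddase that cuts Notch receptors and acts as alpha-secretase on the amyloid precursor protein. Its brightest of 4 probe sets, 1428103_at, had log2 values of 10.20 and 10.46 in knockout cells, against 10.58 and 10.54 in wild-type cells. Both knockout values were lower, and the mean difference was -0.23 (SE 0.150, limma adjusted p = 0.592). Probe set 1450105_at gave 8.34 and 8.57 in knockout cells, against 8.69 and 8.81 in wild-type cells, and 1450104_at gave 6.05 and 6.18 in knockout cells, against 6.23 and 6.20 in wild-type cells. These probe sets ran the same way, by -0.29 and -0.098. The dim 1460083_at overlapped, at 4.43 and 4.63 in knockout cells, against 4.51 and 4.55 in wild-type cells. The 95% interval of the brightest probe set ended at 1.12-fold higher in the knockout, and at 1.04-fold to 1.37-fold with 1 array left out. A rise beyond these bounds lies outside the intervals of that probe set. In the fit over all probe sets, the interval of 1460083_at ended at 1.27-fold higher. The intervals hold for 1 gene at a time and were not widened for the number of genes.

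Adam17 encodes the TNF-alpha converting enzyme, which also releases several ligands of the EGF receptor. Its probe set 1421858_at had log2 values of 8.80 and 8.81 in knockout cells, against 8.90 and 8.62 in wild-type cells. The knockout values lay between the wild-type values, and the difference of 0.041 (SE 0.154, limma adjusted p = 0.945) was smaller than the gap of 0.29 between the wild-type isolations. The other 2 probe sets also overlapped. Probe set 1421859_at gave 7.73 and 7.86 in knockout cells, against 8.04 and 7.85 in wild-type cells, a difference of -0.15. For 1421857_at the values were 5.72 and 5.91 in knockout cells, against 6.16 and 5.88 in wild-type cells, a difference of -0.21. The probe sets of Adam17 thus differed in sign. The 95% interval of the brightest one ran from -0.37 to 0.45, which ends at 1.37-fold higher in the knockout (1.36-fold to 1.66-fold with 1 array left out).

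Adam15 encodes metargidin, a catalytically active ADAM found in many tissues. Its 4 probe sets all had negative differences, from -0.33 to -0.12, and none passed. The brightest, 1438760_x_at, had log2 values of 9.20 and 8.96 in knockout cells, against 9.23 and 9.34 in wild-type cells (difference -0.21, SE 0.151, limma adjusted p = 0.631). The suffix of its name marks probes that can also bind other transcripts. Probe set 1416080_at gave 7.44 and 7.26 in knockout cells, against 7.51 and 7.78 in wild-type cells, a difference of -0.30. Probe set 1425170_a_at gave 5.79 and 5.49 in knockout cells, against 5.95 and 6.01 in wild-type cells. In these 3 probe sets the knockout values were the lower ones without overlap, while 1454206_a_at overlapped, at 6.14 and 5.98 in knockout cells, against 6.08 and 6.28 in wild-type cells. The interval for the brightest probe set ended at 1.15-fold higher in the knockout (1.09-fold to 1.42-fold with 1 array left out). Knockout isolation 2 held the lowest value of Adam15 in all 4 probe sets.

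**Figure D3:**
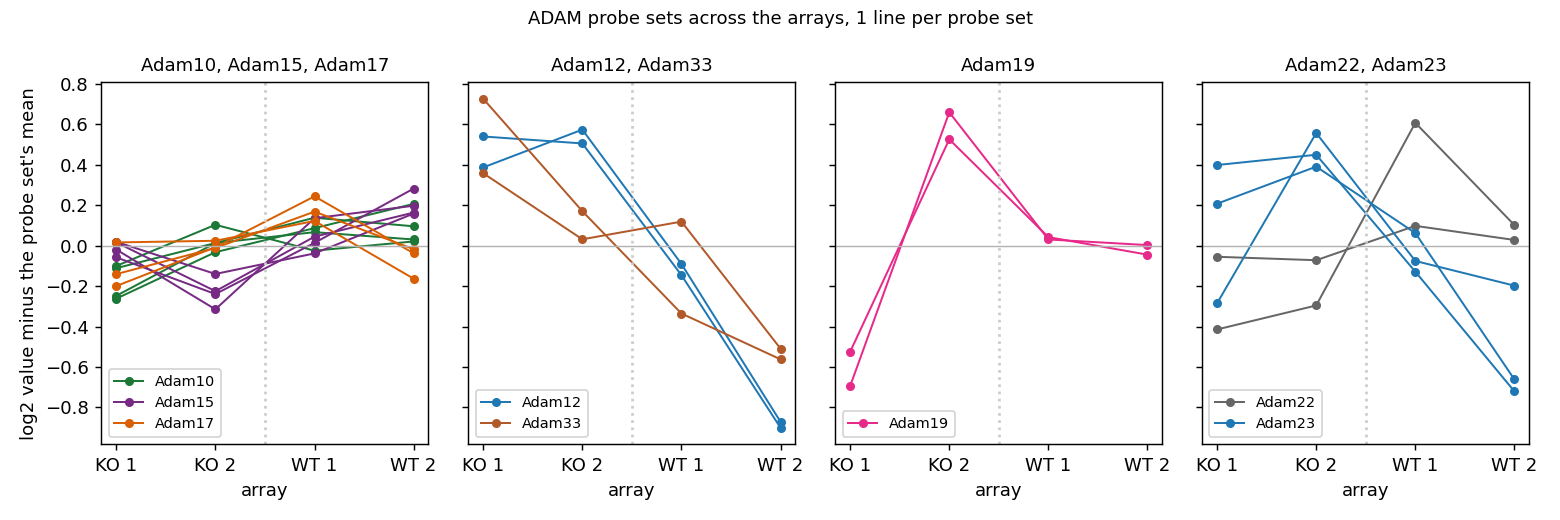
Log2 value of each probe set minus its own mean over the 4 arrays, by array (knockout isolations 1 and 2, then wild-type isolations 1 and 2); each line joins the values of 1 probe set. Adam10, Adam15 and Adam17 stay within about 0.3 of their means, Adam12, Adam23 and Adam33 are lowest in wild-type isolation 2 in their bright probe sets, and Adam19 is low in knockout isolation 1 and high in knockout isolation 2.

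Adam12 encodes meltrin alpha, a protease of muscle precursors and mesenchymal cells that can cleave HB-EGF and IGF-binding proteins. Its probe set 1421172_at had log2 values of 10.39 and 10.35 in knockout cells, against 9.70 and 8.95 in wild-type cells. The second probe set, 1421171_at, had 8.36 and 8.55 in knockout cells, against 7.88 and 7.10 in wild-type cells. Both probe sets were higher in both knockout arrays and lowest in wild-type isolation 2, which was 0.76 and 0.78 below wild-type isolation 1. The means of the first were 10.37 ± 0.024 in knockout cells, against 9.32 ± 0.534 in wild-type cells (SD, n = 2 each). The difference of 1.05 log2 units, or 2.07-fold, had an SE of 0.282 and a 95% interval of 0.29 to 1.80, and did not pass (limma adjusted p = 0.352). Leaving out wild-type isolation 2 gave 0.67, and leaving out wild-type isolation 1 gave 1.42. Of 12 skeletal muscle markers, 2 to 3 stood above the array median in each array. Without overlap between genotypes, 5 lay higher in the knockout and 3 lay lower, beside 23.0% and 22.0% of all genes tested. The 5 higher ones were all under the filter on dim values. The 3 lower ones (Des, Acta1 and Ckm) were the only markers of the list above it. The summed level of the 12 on the linear scale was 958 and 719 in the knockout arrays and 1189 and 2898 in the wild-type arrays. Myod1, the muscle-determining factor, was 3.67 and 3.62 in knockout cells, against 3.58 and 3.45 in wild-type cells. Acta1, the skeletal muscle actin, ran the other way, at 9.62 and 9.06 in knockout cells, against 9.97 and 11.40 in wild-type cells.

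Adam33, whose human counterpart is known as an asthma susceptibility gene and which is expressed in smooth muscle and mesenchymal cells, had 2 probe sets. Probe set 1444628_at had log2 values of 7.98 and 7.42 in knockout cells, against 6.91 and 6.69 in wild-type cells, with no overlap. Probe set 1451904_a_at had 7.44 and 7.11 in knockout cells, against 7.20 and 6.57 in wild-type cells, and there knockout isolation 2 lay below wild-type isolation 1. The difference was 0.90 in the first (SE 0.236, limma adjusted p = 0.347) and 0.39 in the second, so the probe sets had the same sign and unequal size. With 1 array left out the first ran from 0.62 to 1.18 and the second from 0.076 to 0.70. Over 12 markers of pericytes and smooth muscle, the median level was 7.40 and 6.70 in the knockout arrays and 7.84 and 8.20 in the wild-type arrays. Of the 12, 9 lay lower in both knockout arrays, 1 overlapped, and 2 lay higher in the array order of Adam33. Those 2 were the potassium channel subunits Abcc9 and Kcnj8. Abcc9 was 7.49 and 6.48 in knockout cells, against 5.49 and 3.45 in wild-type cells. Kcnj8 was 8.38 and 5.97 in knockout cells, against 5.86 and 4.30 in wild-type cells. The differences of the 9 lower markers ran from -3.12 (Myh11) to -0.13 (Acta2). Myh11, a smooth muscle myosin, was 6.55 and 5.48 in knockout cells, against 8.71 and 9.57 in wild-type cells. Over all genes tested, 22.0% lay lower and 23.0% higher without overlap. The part of these other cell types in the values of Adam12 and Adam33 was not tested.

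Adam19 encodes meltrin beta, which takes part in neuregulin shedding and in heart development. Its values differed most between the knockout isolations. Probe set 1418402_at had log2 values of 9.47 and 10.52 in knockout cells, against 10.03 and 9.95 in wild-type cells. Probe set 1418403_at had 6.86 and 8.21 in knockout cells, against 7.58 and 7.56 in wild-type cells. In both, knockout isolation 1 was lowest and knockout isolation 2 highest, with a gap of 1.05 and 1.35 between them, while the wild-type isolations differed by 0.087 and 0.028. The mean difference between genotypes was 0.0018 (SE 0.376, limma adjusted p = 1.00), with a 95% interval from -1.01 to 1.01. Differences of up to 2.01-fold either way lie inside that interval, and the sign turned with 1 knockout array left out (-0.52 without isolation 2, 0.53 without isolation 1).

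Adam8 encodes a sheddase best known from leukocytes. Its 1 probe set, 1416871_at, had log2 values of 5.32 and 5.05 in knockout cells, against 8.03 and 5.66 in wild-type cells. Wild-type isolation 1 stood alone, 2.37 above wild-type isolation 2, and the difference of -1.66 (SE 0.816) did not pass (limma adjusted p = 0.520). Leaving out wild-type isolation 1 gave a difference of -0.47, and leaving out wild-type isolation 2 gave -2.84. The leukocyte markers had the same array on top. The median of the 20 was 3.93 and 4.26 in the knockout arrays and 7.73 and 4.35 in the wild-type arrays. Their summed level on the linear scale was 562 to 695 in the knockout arrays and 776 to 12252 in the wild-type arrays, and the number above the array median was 5 to 7 in the knockout and 7 to 19 in the wild type. Lyz2, a lysozyme of myeloid cells, was 7.16 and 6.78 in knockout cells, against 12.56 and 7.59 in wild-type cells. Ptprc, the pan-leukocyte antigen CD45, was 2.75 and 2.26 in knockout cells, against 7.05 and 2.80 in wild-type cells. In RNA of whole cultures, fewer cells of a type and less RNA per cell cannot be told apart.

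**Figure D4:**
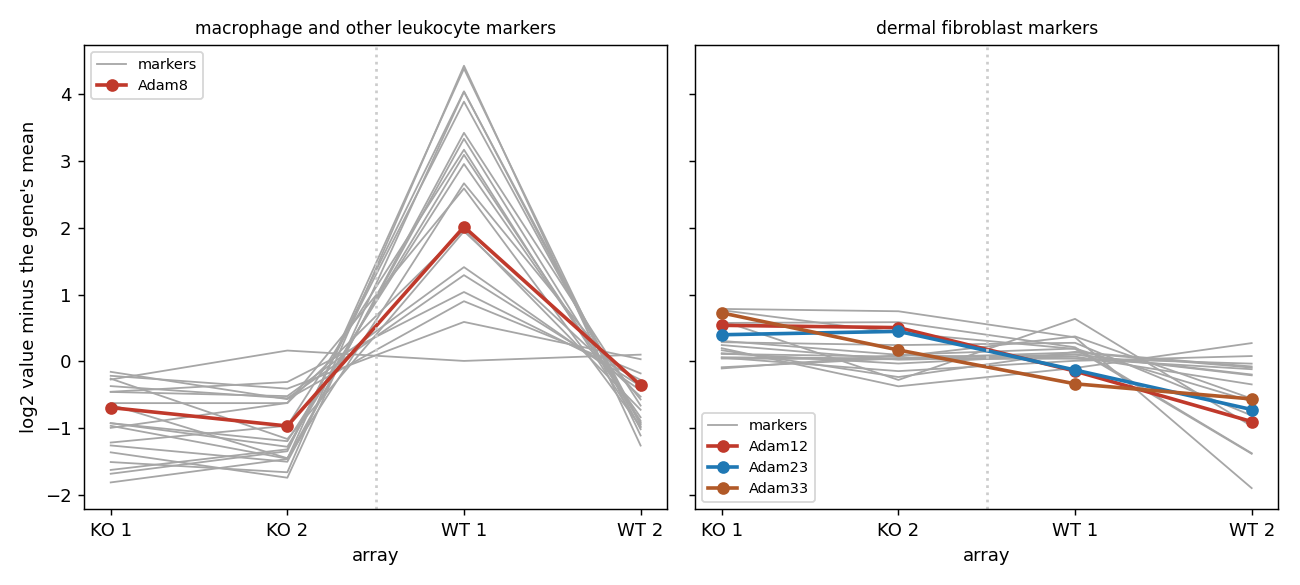
Log2 values minus each gene's mean over the 4 arrays, by array, for Adam8 beside 20 macrophage and other leukocyte markers (left) and for the brightest probe sets of Adam12, Adam23 and Adam33 beside 16 dermal fibroblast markers (right); grey lines are single markers. Adam8 and 19 of the leukocyte markers peak in wild-type isolation 1, and the 3 ADAM genes and 12 of the fibroblast markers are lowest in wild-type isolation 2.

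Adam22 and Adam23 encode ADAM proteins without an active protease site, which bind secreted LGI proteins and are known mainly from neurons. They stood on opposite sides. Adam22 probe set 1435293_at had log2 values of 5.09 and 5.21 in knockout cells, against 6.12 and 5.61 in wild-type cells, with no overlap (difference -0.71, SE 0.213, limma adjusted p = 0.384). Without wild-type isolation 1 that difference was -0.46. Its dimmer probe set, 1451812_at, was 4.27 and 4.25 in knockout cells, against 4.42 and 4.35 in wild-type cells, a difference of -0.13. Adam22 is thus described from values near the array median. The 11 Schwann and neural markers had a median of 4.99 and 4.66 in the knockout arrays and 4.64 and 4.69 in the wild-type arrays, and 4 to 6 of them stood above the array median. Of the 11, 5 lay higher in both knockout arrays (S100b, Mbp, Ngfr, Erbb3 and Snap25), 0 lay lower and 6 overlapped. Over all genes tested, 23.0% lay higher and 22.0% lower without overlap. Snap25 was under the filter on dim values. Tubb3, 1 of the 6 that overlapped, had a difference of -0.74 and was highest in wild-type isolation 2, at 7.99. The summed linear level of the 11 was 476 and 433 in the knockout arrays and 377 and 555 in the wild-type arrays. The neuregulin receptor gene Erbb3 was 4.99 and 4.66 in knockout cells, against 3.88 and 3.98 in wild-type cells, and Ngfr was 5.48 and 5.65 in knockout cells, against 4.85 and 4.94 in wild-type cells.

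Adam23 was higher in both knockout arrays in its bright probe sets. Probe set 1423378_at had log2 values of 9.27 and 9.32 in knockout cells, against 8.75 and 8.15 in wild-type cells (difference 0.85, or 1.80-fold, SE 0.234, limma adjusted p = 0.353). Probe set 1447946_at had 8.08 and 8.26 in knockout cells, against 7.93 and 7.21 in wild-type cells, a difference of 0.60. Without wild-type isolation 2 these differences were 0.55 and 0.24. The dim 1459642_at, with 3.78 and 4.62 in knockout cells, against 3.99 and 3.87 in wild-type cells, overlapped, and it was the 1 member probe set under the filter on dim values. The part of Schwann and neural cells in the values of Adam22 and Adam23 was not tested.

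The brightest probe sets of Adam12, Adam23 and Adam33 had a shared order across arrays, with both knockout arrays above wild-type isolation 1 and wild-type isolation 2 lowest. Of the 16 fibroblast markers, 3 (Lum, Pdgfra and Fbln1) had that order and no overlap between genotypes, and the other 13 overlapped. Among all genes tested, 23.0% lay higher in the knockout without overlap and 22.0% lay lower. The proteoglycan gene Lum was 12.81 and 12.78 in knockout cells, against 12.38 and 10.13 in wild-type cells. Pdgfra, the PDGF receptor of fibroblasts, was 12.30 and 12.31 in knockout cells, against 11.93 and 10.35 in wild-type cells. Vim and S100a4 were highest in wild-type isolation 2, at 13.81 and 13.74. Over the whole list of 16 markers the summed level on the linear scale was 105694 to 113569 in the knockout arrays and 88206 to 109798 in the wild-type arrays. With wild-type isolation 2 left out, the 3 ADAM genes kept positive differences of 0.55 to 0.78, and none passed.

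Genes that control ADAM proteases were described from a list of 29, of which 27 were tested. Of the 27, 0 passed, beside 0.0678% of all genes tested. By an unadjusted limma p under 0.05 the count was 6 of 27, beside 11.4% of all genes tested, and the median difference was -0.11, beside 0.0027 over all genes tested. Without overlap between genotypes, 7 of the 27 lay higher in the knockout and 8 lay lower, near the 23.0% and 22.0% of all genes tested. Of the inhibitors, Timp1 had log2 values of 12.16 and 13.26 in knockout cells, against 11.61 and 11.93 in wild-type cells (difference 0.94, limma adjusted p = 0.477). Timp2 had 12.23 and 12.56 in knockout cells, against 13.27 and 13.16 in wild-type cells (difference -0.82, limma adjusted p = 0.277). These 2 metalloproteinase inhibitors thus stood on opposite sides. Timp3, the TIMP known to inhibit ADAM17, was 12.88 and 13.03 in knockout cells, against 12.87 and 11.98 in wild-type cells, with wild-type isolation 2 standing apart below the other arrays. Timp3 was chosen after its values were seen.

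The TspanC8 tetraspanins, which carry ADAM10 to the cell surface, had differences from -0.72 to 0.59 in 6 genes. Tspan17 was 9.40 and 8.67 in knockout cells, against 9.48 and 10.02 in wild-type cells (difference -0.72, limma adjusted p = 0.494). The 4 proprotein convertases, which remove the ADAM prodomain, had differences from -0.67 to 0.55. Without overlap between genotypes, 1 lay higher in the knockout and 1 lay lower, and 2 overlapped. Pcsk5 was 8.02 and 7.84 in knockout cells, against 8.90 and 8.29 in wild-type cells (difference -0.67, limma adjusted p = 0.433). Pcsk6 was 7.10 and 6.94 in knockout cells, against 6.41 and 6.52 in wild-type cells (difference 0.55, limma adjusted p = 0.314). Pcsk6 was added with its values known, and Furin, chosen after its values were seen, differed by -0.079. The iRhoms Rhbdf1 and Rhbdf2 escort ADAM17 to the surface. They and their partner Frmd8, named here for their role, differed by -0.37 to 0.26, and none passed (limma adjusted p = 0.482 to 0.717).

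**Figure D5:**
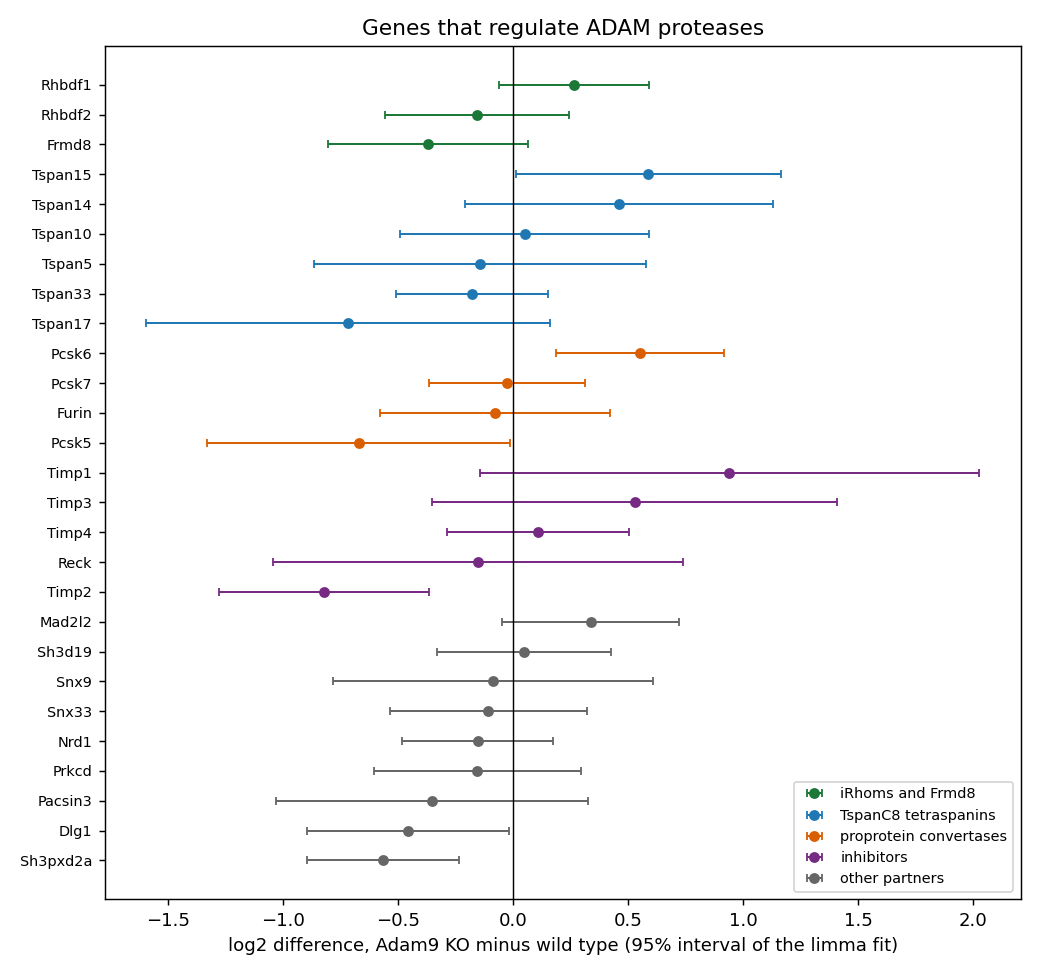
Log2 difference (knockout minus wild type) with its 95% interval for the 27 tested genes that regulate ADAM proteases, coloured by role. None passed at an adjusted p under 0.05, and the differences run from -0.82 (Timp2) to 0.94 (Timp1).

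The remaining ADAM genes, many of them known from testis, were mostly dim. Of 24 listed, 19 had a probe set of their own and 5 passed the filter on dim values. None of the 5 passed the test (limma adjusted p = 0.863 to 0.981; 0 with an unadjusted p under 0.05), and their differences ran from -0.16 to 0.066. The 1 without overlap was Adam11, at 4.97 and 4.88 in knockout cells, against 4.85 and 4.87 in wild-type cells. Higher values in the knockout without overlap were seen in 23.0% of all genes tested, and lower ones in 22.0%.

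Among 42 tested genes whose proteins are reported to be cleaved by ADAM proteases, 1 rose and 0 fell. Over all genes tested, 0.0151% rose and 0.0527% fell. The median difference of the 42 was -0.10, beside 0.0027 over all genes tested. Before adjustment, 5 of the 42 had a limma p below 0.05, and the share among all genes tested was 11.4%. The gene that rose was Dlk1, a membrane protein that ADAM17 cuts and that restrains fat cell formation. Its probe set 1449939_s_at was 9.05 and 9.14 in knockout cells, against 6.20 and 5.99 in wild-type cells (difference 2.999, limma adjusted p = 0.0242). Its other probe set, 1442724_at, was 4.26 and 4.42 in knockout cells, against 4.20 and 3.85 in wild-type cells, a difference of 0.32 that did not pass, and the call was lost without _x_at and _s_at probe sets, with the mean over probe sets, with a block for the isolation number and with any 1 array left out. Without overlap between genotypes, 4 of the 42 lay higher in the knockout and 12 lay lower, beside 23.0% and 22.0% of all genes tested.

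The 5 tested genes whose values across the 4 arrays were most like those of Adam9 were Zfp874a, Asb5, Brinp3, Rnf128 and Lhx9. Likeness was the root mean square difference of values centred on each gene's own mean, which was 0.269 log2 units for Zfp874a and 0.360 to 0.477 for the others. Zfp874a, a zinc finger gene, was 3.22 and 2.99 in knockout cells, against 6.70 and 6.76 in wild-type cells. With 4 arrays in 2 genotypes, any gene that is lower in the knockout by a like amount comes out alike.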

How the data were processed

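Values were measured on 1 expression array per isolation, from total RNA, with a 3' labelling kit per the labels' protocols. The authors deposited 1 log2 value per probe set and array, made with Affymetrix Expression Console per the submitters' processing notes. The notes give no version, summary algorithm or log base. Base 2 was assumed, since values between 1.7 and 14.37 with array medians of 4.84 to 4.88 are usual for log2 summaries. If the base was another, folds would change and orders would not. No detection calls were used, and precision is limited by the number of arrays.

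Probe sets were named from the platform annotation, with symbols updated by Entrez identifier for 34754 of 34958 probe sets with 1 name. No probe set that named several genes named a member, and array controls (64) were left out. Protein sequences of the members were not used here. A gene's brightest probe set (by its mean over the arrays) stood for the gene. The filter on dim values kept genes whose mean exceeded the 40th percentile over probe sets (4.17), 13271 of 18193 genes and all 10 members.

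The comparison used R 4.3.3 with limma 3.58.1 (lmFit, then eBayes, two-sided, no block, Benjamini-Hochberg adjustment over all features tested), with 2 residual and 2.38 prior degrees of freedom, and again over all 45037 probe sets without a filter. The procedure was tested on simulated data. Alternatives were other filters, normalizations, rules for the probe set of a gene and variance models, the isolation number as a block, and each array left out. All 10 members, every probe set of theirs, up to 4 genes per list (those that passed, else those with the largest difference without overlap) and the 5 genes most like Adam9 were named. Markers named singly were picked from their lists after their values were seen. The members and lists were chosen with earlier results of these data known.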

Additional observations from a re-analysis of the deposited data

How the results depend on the processing

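Adam9 kept its direction in all 13 alternatives, with a difference of -3.31 to -3.08. It did not pass with the replicate block (0 members called; limma adjusted p = 0.104 over genes, 0.260 over probe sets) or with any 1 array left out (0 members called, by genes and by probe sets). None of the other 9 genes passed in any alternative run. With the replicate block 2 genes of all those tested were called, and with any 1 array left out 0 were, beside 9 in the main comparison. The isolation numbers give no shared litter or day, and the differences between isolations 1 and 2 correlated with r = 0.116 across genes between the genotypes. From the list of cleaved proteins, 0 genes passed with the replicate block, with the mean over probe sets, without _x_at and _s_at probe sets, or with any 1 array left out.

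Among the members, signs turned only in differences near 0 or in dim probe sets. Adam19 was -0.011 when quantile-normalized again (gene and probe set 1418402_at) and -0.016 with the mean over probe sets, and with 1 array left out it ran from -0.52 to 0.53 (1418403_at from -0.71 to 0.64). Adam17 was -0.11 with the mean over probe sets and ran from -0.10 to 0.18 with 1 array left out. With 1 array left out, Adam10 1460083_at ran from -0.098 to 0.11 and Adam23 1459642_at from -0.15 to 0.69. The cause of these turns was not tested. The lone sample of a genotype was taken to vary like the others. Signals near the array median (Adam22, Adam10 1460083_at, Adam23 1459642_at, and Adam8 outside wild-type isolation 1) have no stated background level.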
